A study of Homo sapiens with 24 samples.

Results

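The genes described are 53 genes of the G2 phase and of mitosis, chosen by name, measured in HCT116, an established line from a human colorectal carcinoma, 72 h after adding DNMT1 inhibitors or only their solvent, dimethyl sulfoxide (DMSO). Each gene was read from its probe set with the highest mean over the 24 Affymetrix HG-U133 Plus 2.0 arrays, among probe sets that carry that symbol alone, and the 53 were part of 18055 genes tested. Decitabine (DAC) was given at 5 µM and 120 nM, azacytidine (Aza) at 1500 nM and 150 nM, the prodrug G668684 at 7 µM and 150 nM, and the prodrug G669043 at 1500 nM and 150 nM. The sample titles give 63 µM and 6 µM for the prodrug G669071 but their source names give 120 nM and 6 nM, so its doses are named here as higher and lower. DMSO had 4 arrays and each of the 10 treated groups had 2. Whether replicates were grown as separate cultures is not in the labels, and p-values here cover the spread among these samples alone, which may be technical. Compounds are named as the labels name them. How G669043 relates to Aza, whose short name stands in its sample titles, is not settled.

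Entry into mitosis is driven by the kinase CDK1 bound to cyclin B, and the spindle checkpoint holds the anaphase-promoting complex back until kinetochores have attached to microtubules. The genes of this program are switched on together late in the cell cycle, through promoters that often carry a cell cycle homology element (CHR) and CCAAT boxes, bound by MuvB complexes with B-MYB and FOXM1 or, when the genes are silenced, by the DREAM complex. DAC and Aza resemble cytidine and, once built into DNA, hold DNA methyltransferases there, and cells exposed to such trapping can raise CDKN1A, an inhibitor of cyclin-dependent kinases that lies upstream of DREAM.

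The promoters are shown because they hold a sequence feature that the choice of the genes did not use. RefSeq promoters of GRCh38.p14, each 250 bases before to 50 bases after an annotated transcription start, were matched for 45 of the 53 genes, with 56 promoters in all since 7 genes had more than 1. Printed are the 120 bases just before the start of CCNB1 (chr5:69167030-69167149, plus strand), CCNB2 (chr15:59105026-59105145, plus strand), PLK1 (chr16:23678769-23678888, plus strand), BUB1B (chr15:40160949-40161068, plus strand), CENPE (chr4:103198344-103198463, minus strand), CENPF (chr1:214603075-214603194, plus strand), KIF15 (chr3:44761674-44761793, plus strand), HMMR (chr5:163460512-163460631, plus strand), MKI67 (chr10:128126424-128126543, minus strand) and CENPI (chrX:101100938-101101057, plus strand). Capitals mark CHR letters, which are TTTGAA or the palindrome TTTAAA, and the CCAAT box. A site on the opposite strand reads as TTCAAA for the former and as ATTGG for the CCAAT box. The genes were picked as textbook members (CCNB1, CCNB2, PLK1, MKI67), as examples of genes with large falls in the values below, and, for CENPI, as the gene that moved the other way. SMC4, KIF11, ASPM and NCAPH fell further than HMMR with DAC at 5 µM and are not printed. BUB1, AURKB and CENPK, also called lower there and not printed, held no CHR letters in their entries. The printed set therefore cannot show whether motifs and changes go together.
CCNB1: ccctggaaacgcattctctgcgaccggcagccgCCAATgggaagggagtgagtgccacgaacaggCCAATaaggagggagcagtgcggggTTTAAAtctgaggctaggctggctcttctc
CCNB2: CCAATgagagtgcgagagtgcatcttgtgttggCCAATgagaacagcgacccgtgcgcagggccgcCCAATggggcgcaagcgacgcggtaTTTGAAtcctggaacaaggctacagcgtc
PLK1: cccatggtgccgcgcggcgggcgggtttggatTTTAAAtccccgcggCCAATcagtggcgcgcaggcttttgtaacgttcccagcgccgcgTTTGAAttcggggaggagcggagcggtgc
BUB1B: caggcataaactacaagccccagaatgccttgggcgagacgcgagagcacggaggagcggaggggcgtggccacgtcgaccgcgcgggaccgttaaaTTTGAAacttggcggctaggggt
CENPE: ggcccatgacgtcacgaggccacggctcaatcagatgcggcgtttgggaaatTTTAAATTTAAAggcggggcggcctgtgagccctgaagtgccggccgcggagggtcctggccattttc
CENPF: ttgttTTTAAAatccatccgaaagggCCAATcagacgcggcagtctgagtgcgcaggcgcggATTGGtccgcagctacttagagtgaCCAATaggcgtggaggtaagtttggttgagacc
KIF15: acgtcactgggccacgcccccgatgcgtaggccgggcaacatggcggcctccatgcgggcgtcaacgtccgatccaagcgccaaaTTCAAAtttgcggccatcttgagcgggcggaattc
HMMR: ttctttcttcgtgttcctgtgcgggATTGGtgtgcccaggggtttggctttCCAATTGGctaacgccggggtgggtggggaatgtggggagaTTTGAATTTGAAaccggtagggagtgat
MKI67: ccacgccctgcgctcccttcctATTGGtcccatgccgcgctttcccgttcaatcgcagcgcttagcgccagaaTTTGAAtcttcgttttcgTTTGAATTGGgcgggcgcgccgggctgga
CENPI: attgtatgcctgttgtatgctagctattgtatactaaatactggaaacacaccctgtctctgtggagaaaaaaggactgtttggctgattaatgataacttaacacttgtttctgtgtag

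CCNB1 held 2 CCAAT boxes followed by TTTAAA in this window, and CCNB2 held 3 followed by TTTGAA. HMMR and CENPE had CHR letters in tandem, and BUB1B, CENPE and KIF15 had CHR letters without CCAAT. CENPI held neither motif anywhere in its promoter entry, but whether that entry is the start used in these cells was not tested. CKAP2, not printed, also held neither. Nor did some of the entries of CDC25B, CDC25C and SMC4, which were called lower with DAC at 5 µM, so lacking both motifs is not particular to CENPI. Over the promoters as a whole, searched on both strands, TTTGAA or TTTAAA stood in 38 of the 45 genes (84.4%) and in 75.0% of their promoters, while 8424 of the 35116 promoters in the table held it. In the last 100 bases before and the 50 after the start the letters were in 69.6% of the genes' promoters and in 11.2% of all promoters. CCAAT was in 69.6% of these promoters against 34.6% of all, and promoters with both motifs made up 55.4% against 9.3%. The motifs can overlap, as in MKI67, and a match describes letters only. BUB3, AURKA, TTK, FOXM1, BIRC5, TPX2, RACGAP1 and UBE2C have no entry in the promoter table used.

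All values below are log2 of the deposited intensity, and differences are on that log2 scale. Levels of different probe sets cannot be set against each other. Array medians lay between 6.46 and 6.58, and every one of the 53 genes passed the filter on low values on all 24 arrays, the lowest value being 5.49. All 8 colon epithelial markers, among them EPCAM, KRT8 and CDX2, passed the filter. Their summed level was lowest on the DMSO arrays, from 14.92, and 15.03 to 15.28 in the 10 treated groups, each array above every DMSO array. KRT19 was at 12.19 with DMSO and 13.04 with DAC at 5 µM. EPCAM went the other way with DAC at 120 nM, from 12.93 to 12.62, and CDH1 with Aza at 1500 nM, from 10.30 to 9.64. Of fibroblast, blood, endothelial and neuronal markers 5 of 7, 4 of 7, 5 of 5 and 5 of 5 passed, with summed levels between 9.25 and 10.78. The blood marker PTPRC and the fibroblast marker COL3A1 did not. COL1A1 (9.98 with DMSO), HBB (8.77) and CD3E (8.15) did, so passing the filter does not mark a cell type. The neuronal markers were lower in sum with Aza at 1500 nM (9.69 to 9.72) and with G669043 at 1500 nM (9.96 to 10.03) than with DMSO (10.50 to 10.71). That difference lay in SYT1, with means of 10.17, 8.73 and 9.34 with DMSO, Aza and G669043, while RBFOX3, SNAP25, GAP43 and STMN2 each differed less. The part of these markers in the results was not tested. In RNA from bulk cultures, fewer cells in G2 or mitosis and less RNA per cell cannot be told apart.

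The 4 DMSO arrays fell into pairs, and the G2/M genes differed between them. Replicates 1 and 2 correlated at 0.997 over all genes, as did replicates 3 and 4, while across the pairs the values were 0.990 to 0.991. The mean over the 53 genes, relative to the DMSO mean, was -0.12 and -0.18 on replicates 1 and 2 and 0.17 and 0.13 on replicates 3 and 4. Of the 53 genes 43 (81.1%) were higher on replicates 3 and 4, by a median of 0.35, whereas 44.1% of all genes were. ANLN differed most in this way among the genes below, by 0.94, followed by ECT2, by 0.91, and PLK1 was 0.27 lower on replicates 3 and 4 (a difference of -0.27). The beta-actin 3' minus 5' value, a sign of RNA integrity and labelling, was -0.03, 0.00, 0.24 and 0.15 on the 4 arrays, and its part in the difference was not tested. Each comparison with DMSO is therefore given against all 4 arrays and against each pair.

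Most G2/M and mitosis genes fell at the high doses of DAC and G668684, fewer with G669071 and Aza, and hardly any with G669043. A gene was called when the Benjamini-Hochberg adjusted p of limma over all 18055 genes was under 0.05. With DAC at 5 µM 45 of the 53 were called lower and 0 higher, with a median change of -0.70, where 14.2% of all genes were called lower and the median of all genes was -0.04. With G668684 at 7 µM 45 were lower and 0 higher (median -0.66), beside 14.7% of all genes. The higher dose of G669071 lowered 35 and raised 1, CENPI (median -0.47), beside 13.7% of all genes lower and 15.8% higher. With Aza at 1500 nM 15 were lower and 1, UBE2C, higher (median -0.19), against 9.19% of all genes lower and 8.13% higher. G669043 at 1500 nM gave 1 lower call, CENPE, and 1 higher call, CCNB1 (median 0.05), with 3.25% and 5.88% of all genes called in these directions and 9.12% in either.

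Fewer genes were called at the lower doses. DAC at 120 nM lowered 14 and raised 0 (median -0.21, 9.89% of all genes lower), and G668684 at 150 nM lowered 17 and raised 0 (median -0.25, 10.4% of all genes lower). The lower dose of G669071 lowered 6 and raised 2, PTTG1 and CENPI (median -0.14), where 6.91% of all genes were called lower and 8.68% higher. Aza at 150 nM gave 0 calls by limma, with 2 of the 53 at an unadjusted p under 0.05 (median 0.02), beside 1.03% of all genes called higher, 0.460% lower and 1.49% in either direction. G669043 at 150 nM also gave 0 calls (median 0.16), beside 0.870% of all genes. The same DMSO arrays serve all 10 comparisons, so their agreement is not independent.

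**Figure D1:**
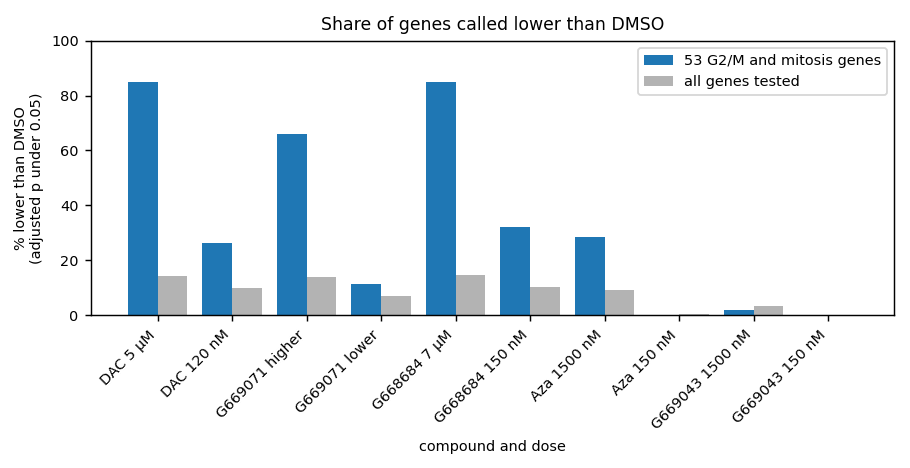
Share of the 53 G2/M and mitosis genes (blue) and of all 18055 genes tested (grey) called lower than DMSO at an adjusted p under 0.05, in percent, for each compound and dose. The blue bar is far above the grey at the high doses of DAC, G669071 and G668684 (45, 35 and 45 of 53 genes) and not above it for Aza 150 nM or either dose of G669043.

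**Figure D2:**
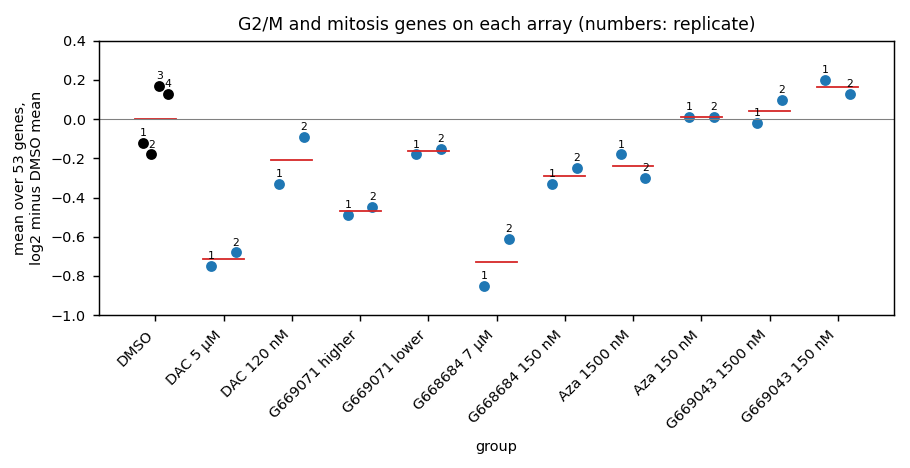
Mean over the 53 genes on each of the 24 arrays, as log2 value minus the DMSO mean (points, numbered by replicate; red lines are group means). DMSO replicates 1 and 2 lie below 0 and replicates 3 and 4 above it, and the arrays with DAC 5 µM (-0.75 and -0.68) and G668684 7 µM (-0.85 and -0.61) lie lowest.

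The plot of array means shows that both arrays at the high doses of DAC, G669071 and G668684 lay below all 4 DMSO arrays, as did those of G668684 at 150 nM. The 2 arrays of DAC at 120 nM, at -0.33 and -0.09, and those of Aza at 1500 nM, at -0.18 and -0.30, did not all do so. Gene by gene, with DAC at 5 µM both treated arrays lay below all DMSO arrays for 46 genes, above them for 1 and among them for 6, where 21.0% of all genes had both below. The same held below for 43 genes with G668684 at 7 µM (20.4% of all genes), 39 with the higher dose of G669071 (20.5%) and 22 with Aza at 1500 nM (14.3%). With Aza at 150 nM 0 genes had both arrays below (8.18% of all genes) and 5 had both above (9.36%). With G669043 at 150 nM 0 genes had both arrays below and 10 had both above (12.2% of all genes above).

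How many genes were called depended on the DMSO pair, for DAC, G669071 and G668684 more at the lower dose than at the high one. Against DMSO replicates 1 and 2 alone the calls were 36 with DAC at 5 µM, 37 with G668684 at 7 µM and 30 with the higher dose of G669071, and against replicates 3 and 4 alone 51, 51 and 47. DAC at 120 nM had 9 calls against the one pair and 32 against the other, the lower dose of G669071 3 and 30, G668684 at 150 nM 13 and 36, and Aza at 1500 nM 12 and 30. G669043 changed sides: at 150 nM 26 genes were called, all higher, against replicates 1 and 2 and 0 against replicates 3 and 4, and at 1500 nM 12 were higher against the one pair and 7 lower against the other. Aza at 150 nM had 2 higher and then 2 lower calls. The share of all genes called was not counted in these fits or in those below with an array left out. How far these shifts are particular to the G2/M genes is therefore not known.

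Leaving out single treated arrays moved some counts as well. Of the 45 calls with DAC at 5 µM 36 were kept whichever array was left out, and 38 of the 45 with G668684 at 7 µM, 24 of the 36 with the higher dose of G669071 and 4 of the 16 with Aza at 1500 nM were. The calls with DAC at 120 nM numbered 6 without its replicate 1, those with G668684 at 150 nM 8 and 10 without its replicates 1 and 2, and those with Aza at 1500 nM 5 without its replicate 2. For the lower dose of G669071 the count was 2 without either treated array and 13, 5 and 4 without DMSO replicates 2, 3 and 4. For G669043 at 1500 nM it was 1 or 0 without either treated array and 1 without DMSO replicate 1 or 2, and at 150 nM it was 3 without DMSO replicate 3.

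**Figure D3:**
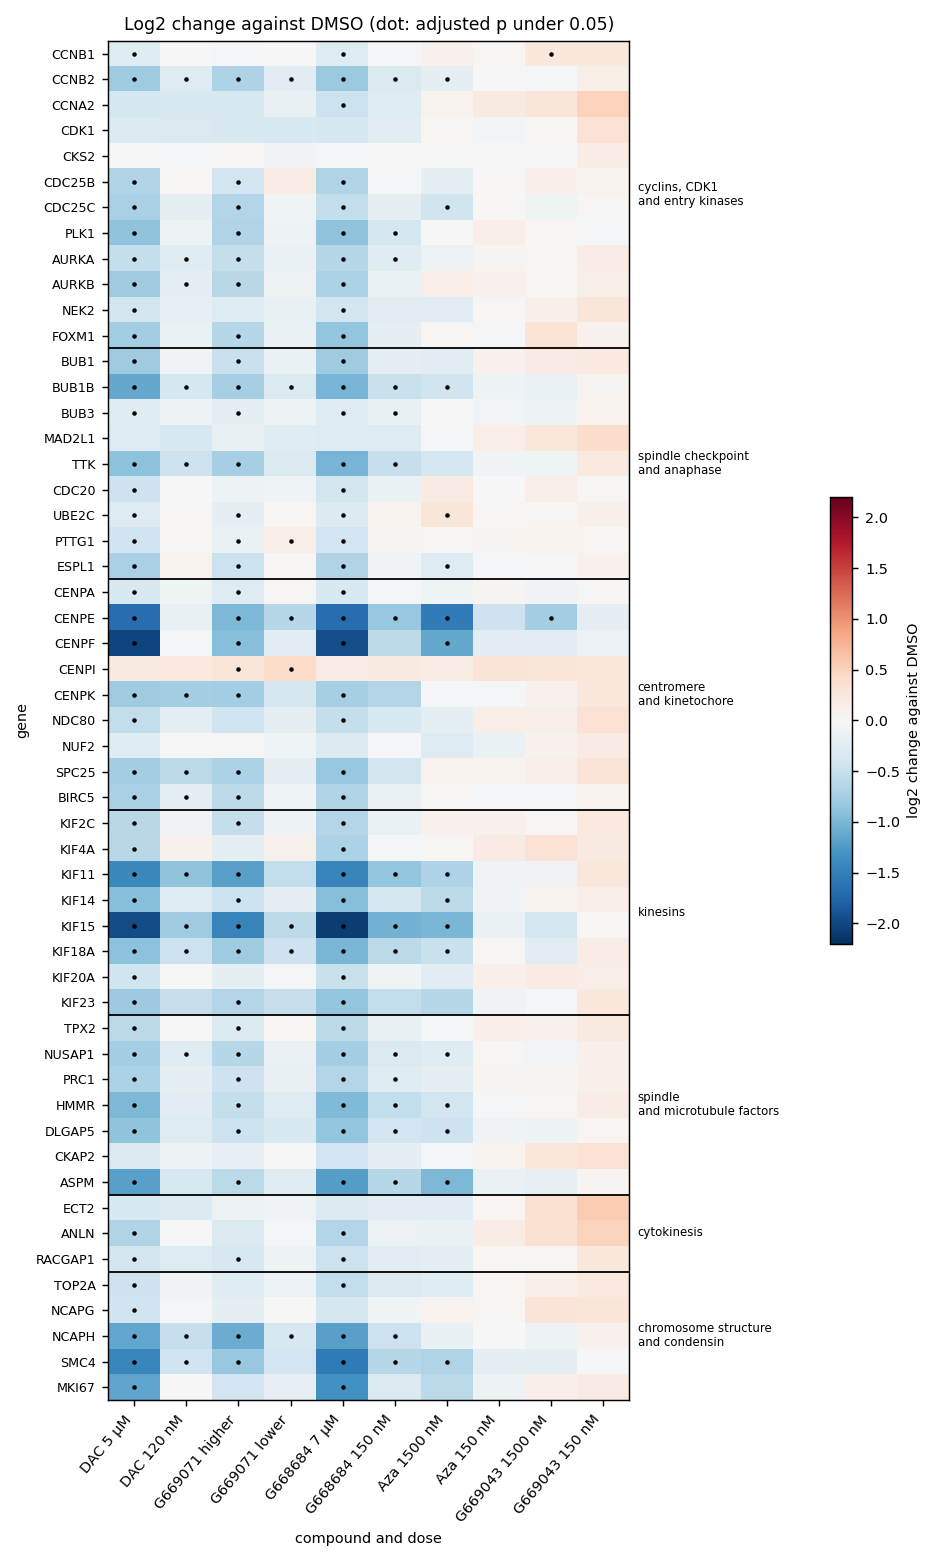
Log2 change against DMSO (colour, blue lower and red higher) of each of the 53 genes, grouped by role, for the 10 compounds and doses; a dot marks an adjusted p under 0.05. Blue deepens in the columns of DAC 5 µM and G668684 7 µM, down to -2.02 for CENPF and -2.08 for KIF15, while the columns of G669043 are pale or light red apart from CENPE at 1500 nM (-0.75).

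Among the cyclins, CDK1 and the kinases and phosphatases of mitotic entry, 9 of 12 genes fell with DAC at 5 µM. With G668684 at 7 µM 10 fell, with the higher dose of G669071 7 and with Aza at 1500 nM 2. The share of all genes called lower in these groups was 14.2%, 14.7%, 13.7% and 9.19%, in that order. The same shares apply to the counts of each role below, and no count was tested against them. PLK1, a kinase that acts at centrosomes, kinetochores and the midbody, read 8.95, 8.80, 8.71 and 8.49 on the DMSO arrays, 7.94 and 7.76 with DAC at 5 µM, 7.83 and 7.89 with G668684 at 7 µM, and 8.80 and 8.70 with Aza at 1500 nM. The arrays of both high doses lay below every DMSO array and those of Aza among them. PLK1 changed by -0.89 ± 0.11 (SE) with DAC at 5 µM, to 54.1% of DMSO (limma adjusted p = 2.4e-06), by -0.88 ± 0.11 with G668684 at 7 µM and by -0.66 ± 0.11 with the higher dose of G669071. With Aza at 1500 nM its change was 0.01, with a 95% interval of -0.22 to 0.24.

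CCNB2 and CCNB1, the B-type cyclins that activate CDK1, differed from each other. CCNB2 read 11.25 to 11.40 with DMSO, 10.50 and 10.62 with DAC at 5 µM, and 11.16 and 11.10 with Aza at 1500 nM. It was called lower in all 6 groups of DAC, G669071 and G668684 and with Aza at 1500 nM. The change was -0.78 ± 0.06 with DAC at 5 µM (limma adjusted p = 9.6e-10) and -0.21 ± 0.06 with Aza at 1500 nM, the latter lost without Aza replicate 2 (adjusted p = 0.14). Dimmer probe sets of CCNB2, with DMSO means of 7.30 and 5.24 against 11.34 for the chosen one, gave -0.22 and -0.16 with DAC at 5 µM. They gave 0.05 and -0.21 with DAC at 120 nM, 0.01 and 0.01 with G668684 at 150 nM, and 0.06 and 0.02 with Aza at 1500 nM. CCNB1 read 11.89, 11.99, 12.20 and 12.20 with DMSO, 11.81 and 11.80 with DAC at 5 µM, and 12.29 and 12.31 with G669043 at 1500 nM. Its arrays were thus just below the DMSO range with DAC and just above it with G669043. CCNB1 changed by -0.27 ± 0.07 with DAC at 5 µM, a call lost without DAC replicate 2 (limma adjusted p = 0.056) or against DMSO replicates 1 and 2 alone, and by 0.23 ± 0.07 with G669043 at 1500 nM, a call lost without either G669043 array or DMSO replicate 1 or 2. A second probe set of CCNB1 gave the same change with DAC at 5 µM, -0.27, without passing the threshold (adjusted p = 0.28).

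AURKB, the kinase of the chromosomal passenger complex, read 10.01 to 10.10 with DMSO and 9.29 on both arrays with DAC at 5 µM, a change of -0.78 ± 0.05. With Aza at 1500 nM it read 10.24 and 10.17, above every DMSO array, with a change of 0.14 that missed the threshold (limma adjusted p = 0.097). Its dim second probe set did not fall with DAC (0.08 at 5 µM). FOXM1, a transcription factor of the late cell cycle genes, read 9.18, 8.99, 9.10 and 8.97 with DMSO, 8.33 and 8.26 with DAC at 5 µM, and 9.18 and 9.55 with G669043 at 1500 nM. Its arrays with DAC lay below the DMSO range, and it fell by 0.77 with DAC at 5 µM (SE 0.11), to 58.8% of DMSO, and by 0.86 with G668684 at 7 µM. CDC25B, a phosphatase that activates CDK1, fell by 0.66 with DAC at 5 µM and by 0.42 with the higher dose of G669071, and CDC25C fell by 0.43 with Aza at 1500 nM. The latter was lost without Aza replicate 2 (limma adjusted p = 0.058), and a fit that dropped probe sets matching several transcripts gave 0.04 for CDC25C.

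CDK1 itself was not called in any of the 10 comparisons. It read 11.86, 11.72, 12.43 and 12.50 on the DMSO arrays and 11.80 and 11.85 with DAC at 5 µM, so the treated arrays overlapped the lower DMSO pair. Its change with DAC at 5 µM was -0.30, with a 95% interval of -0.68 to 0.08. CCNA2, cyclin A2, was called with G668684 at 7 µM (-0.48 ± 0.15, limma adjusted p = 0.021) and not with DAC at 5 µM (-0.38, adjusted p = 0.065), and the former call was lost without either G668684 array or DMSO replicate 3. A second CCNA2 probe set of like brightness (DMSO mean 10.73) gave -0.80 with DAC at 5 µM, -0.66 with G668684 at 7 µM and -0.59 with the higher dose of G669071. CKS2, a small CDK-binding subunit, had changes between -0.04 and 0.03 at the high doses of DAC, G669071 and G668684.

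The spindle checkpoint and anaphase genes fell in 8 of 9 cases with DAC at 5 µM and with G668684 at 7 µM, in 7 with the higher dose of G669071 and in 2 with Aza at 1500 nM. BUB1B, which encodes the checkpoint protein BubR1, read 10.16, 10.06, 10.27 and 10.35 with DMSO, 9.09 on both arrays with DAC at 5 µM, 9.46 and 9.50 with the higher dose of G669071, and 9.82 and 9.72 with Aza at 1500 nM. None of these treated arrays reached the DMSO range. BUB1B changed by -1.12 ± 0.08 with DAC at 5 µM, to 46.0% of DMSO (limma adjusted p = 1.9e-09), by -0.73 ± 0.08 with the higher dose of G669071 and by -0.44 ± 0.08 with Aza at 1500 nM. It was called lower in all 6 groups of DAC, G669071 and G668684, and the calls at the high doses and with Aza at 1500 nM were kept in every alternative run.

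TTK, the kinase MPS1 that recruits the checkpoint, read 10.73, 10.64, 11.10 and 11.07 with DMSO, 9.98 or just above on both arrays with DAC at 5 µM, and 10.57 and 10.44 with Aza at 1500 nM. Both DAC arrays lay below the DMSO range, and Aza's did so by less. It fell by 0.90 with DAC at 5 µM (SE 0.13) and by 1.02 with G668684 at 7 µM, to 49.3% of DMSO, and with Aza at 1500 nM its change of -0.38 missed the threshold (limma adjusted p = 0.052). ESPL1, separase, which cleaves cohesin at anaphase, fell by 0.71 with DAC at 5 µM and by 0.28 with Aza at 1500 nM, the latter lost without Aza replicate 2 (adjusted p = 0.23).

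UBE2C, a ubiquitin-conjugating enzyme of the anaphase-promoting complex, fell with DAC and rose with Aza. It read 11.99, 12.06, 12.04 and 12.03 with DMSO, 11.70 and 11.78 with DAC at 5 µM, 11.70 and 11.76 with G668684 at 7 µM, and 12.37 and 12.23 with Aza at 1500 nM. The DAC and G668684 arrays lay below all DMSO arrays and the Aza arrays above them. UBE2C changed by -0.29 ± 0.05 with DAC at 5 µM (limma adjusted p = 2.2e-04) and by 0.27 ± 0.05 with Aza at 1500 nM (adjusted p = 0.0012, and 0.062 without Aza replicate 1). The doses of the compounds differ, so the difference between them was not tested. PTTG1, securin, fell by 0.44 with DAC at 5 µM and rose by 0.14 with the lower dose of G669071, a call lost without either of its arrays or DMSO replicate 4. MAD2L1, a checkpoint protein that binds CDC20, read 11.85, 11.86, 12.67 and 12.43 with DMSO and 11.92 and 11.93 with DAC at 5 µM and was not called in any of the 10 comparisons. Its other probe sets differed from that one: their changes with DAC at 5 µM were -0.75 (DMSO mean 12.17, against 12.20 for the chosen probe set) and -0.95, where the chosen one gave -0.28. With G668684 at 7 µM they were -0.73 and -1.09.

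Centromere and kinetochore genes included the largest fall with DAC at 5 µM, in CENPF, and a gene that rose, CENPI. Lower calls were made for 7 of 9 with DAC at 5 µM and with G668684 at 7 µM, 6 with the higher dose of G669071 and 2 with Aza at 1500 nM. CENPF, a large kinetochore and nuclear matrix protein, read 9.96, 9.53, 9.90 and 9.88 with DMSO, 7.55 and 8.05 with DAC at 5 µM, 7.05 and 8.68 with G668684 at 7 µM, and 8.83 and 8.54 with Aza at 1500 nM. All 6 treated arrays were below the DMSO range, and the 2 arrays with G668684 lay far apart. Its change of -2.02 ± 0.29 with DAC at 5 µM, to 24.7% of DMSO (limma adjusted p = 1.2e-05), was the most negative of all 18055 genes tested. It changed by -1.95 ± 0.29 with G668684 at 7 µM, by -0.94 ± 0.29 with the higher dose of G669071, a call lost without either of its arrays (adjusted p = 0.13 and 0.072), and by -1.13 ± 0.29 with Aza at 1500 nM, lost without Aza replicate 2 (adjusted p = 0.13). At 120 nM DAC its arrays read 9.93 and 9.65, within the DMSO range.

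CENPE, a kinesin that moves chromosomes to the spindle equator, was lowered by Aza nearly as far as by DAC. It read 7.71, 7.37, 7.89 and 8.07 with DMSO, 5.97 and 6.19 with DAC at 5 µM, 5.78 and 6.38 with G668684 at 7 µM, 6.12 and 6.31 with Aza at 1500 nM, and 6.91 and 7.12 with G669043 at 1500 nM. All of these treated arrays lay below the DMSO range. CENPE changed by -1.68 ± 0.18 with DAC at 5 µM, to 31.2% of DMSO, by -1.68 ± 0.18 with G668684 at 7 µM, by -1.54 ± 0.18 with Aza at 1500 nM, to 34.3% (limma adjusted p = 6.8e-06), and by -0.75 ± 0.18 with G669043 at 1500 nM (adjusted p = 0.012). It was the gene with the most negative change of the 53 with either compound at 1500 nM. The call with G669043 was lost without either of its arrays (adjusted p = 0.16 and 0.063). With DAC at 120 nM CENPE read 7.60 and 7.58, within the DMSO range.

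CENPI, a subunit of the constitutive centromere network, was the only gene of the 53 called higher in more than 1 group. It read 7.03, 6.93, 6.92 and 6.97 with DMSO, 7.36 and 7.38 with the lower dose of G669071, 7.14 and 7.32 with its higher dose, and 7.08 and 7.24 with DAC at 5 µM. The treated arrays lay above all DMSO arrays in 9 of the 10 groups, Aza at 1500 nM being the exception with 7.23 and 7.03. CENPI rose by 0.41 ± 0.08 with the lower dose of G669071, to 133% of DMSO (limma adjusted p = 0.002), and by 0.27 ± 0.08 with the higher dose, a call lost without its replicate 2 (adjusted p = 0.31). A dimmer second probe set of CENPI read 0.09 with the higher dose and 0.30 with the lower. CENPK and SPC25, a further centromere subunit and a subunit of the NDC80 complex, fell by 0.79 and 0.77 with DAC at 5 µM, the call of CENPK being lost when some single array was left out. NUF2, another NDC80 subunit, was not called in any of the 10 comparisons and differed by 0.75 between the DMSO pairs.

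All 8 kinesins fell with DAC at 5 µM and with G668684 at 7 µM, 6 with the higher dose of G669071 and 4 with Aza at 1500 nM. KIF15, a plus-end motor that supports the bipolar spindle, read 7.75, 7.69, 8.06 and 8.10 with DMSO, 5.90 and 5.96 with DAC at 5 µM, 7.09 and 7.16 with DAC at 120 nM, 6.43 and 6.44 with the higher dose of G669071, 5.49 and 6.16 with G668684 at 7 µM, and 7.08 and 6.70 with Aza at 1500 nM. Each of these arrays lay below the DMSO range, and the replicates with G668684 and with Aza lay farther apart than those of the other treated groups named. KIF15 changed by -1.97 ± 0.16 with DAC at 5 µM, to 25.5% of DMSO (limma adjusted p = 1.0e-08), and by -0.78 ± 0.16 at 120 nM. Its change of -2.08 ± 0.16 with G668684 at 7 µM, to 23.7%, was the most negative of all genes tested there, and with Aza at 1500 nM it changed by -1.01 ± 0.16.

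KIF11, the motor Eg5 that pushes the spindle poles apart, read 8.89, 8.67, 9.47 and 9.36 with DMSO, 7.61 and 7.76 with DAC at 5 µM, and 8.48 and 8.35 with Aza at 1500 nM. Both groups lay below the DMSO range. It changed by -1.41 ± 0.19 with DAC at 5 µM, to 37.6% of DMSO (limma adjusted p = 8.7e-06), by -1.45 ± 0.19 with G668684 at 7 µM, and by -0.68 ± 0.19 with Aza at 1500 nM, lost without either Aza array or DMSO replicate 3 or 4. At 120 nM DAC it read 7.89 and 8.55, below the DMSO range, and its call there (-0.88 ± 0.19) was lost without DAC replicate 1 (adjusted p = 0.11). KIF18A, which limits chromosome movement at metaphase, fell in all 6 groups of DAC, G669071 and G668684, by 0.90 with DAC at 5 µM. Its calls with DAC at 120 nM, the lower dose of G669071, G668684 at 150 nM and Aza at 1500 nM were each lost when some array was left out. KIF14 fell by 0.94 with DAC at 5 µM and by 0.57 with Aza at 1500 nM, the latter lost without Aza replicate 2 (limma adjusted p = 0.29). KIF20A, at -0.43 with DAC at 5 µM, had the smallest fall of the 8 in that group.

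**Figure D4:**
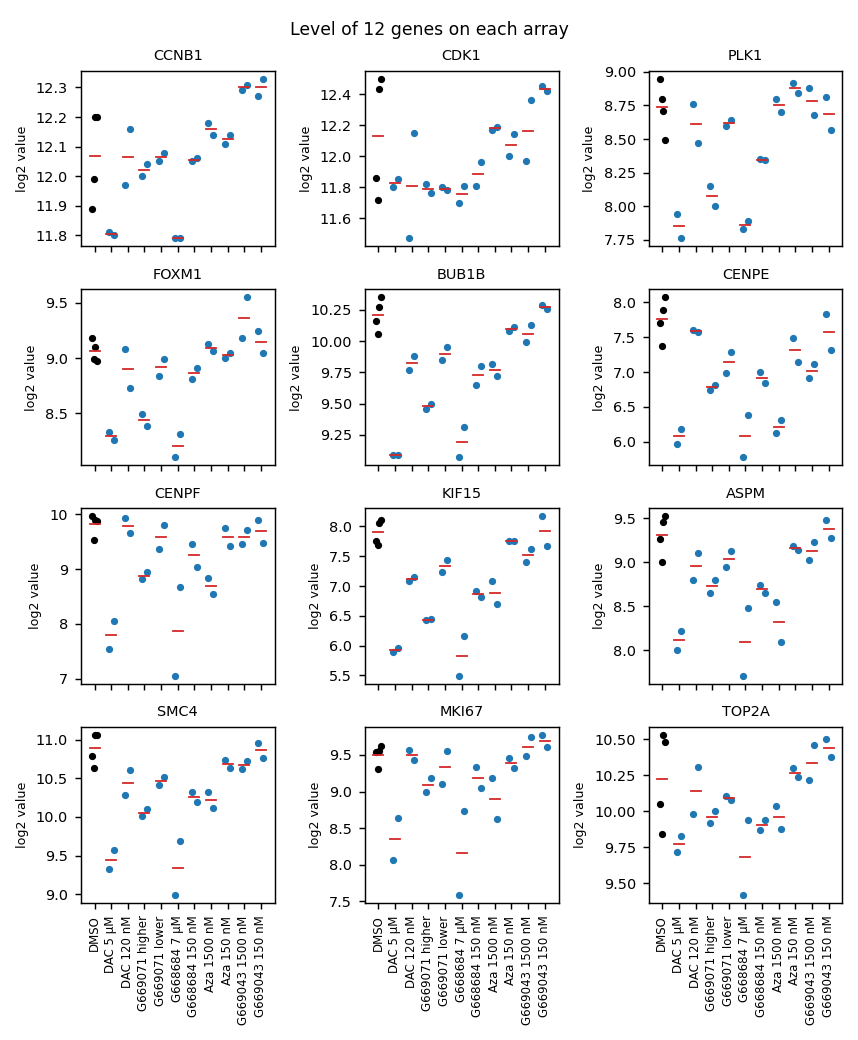
Log2 value of 12 genes on each array (points; black DMSO, blue treated; red lines are group means), with a separate vertical scale for each gene. CENPF, KIF15, SMC4 and ASPM with DAC 5 µM and G668684 7 µM lie well below the DMSO arrays, whereas CDK1 with DAC 5 µM (11.80 and 11.85) overlaps the lower DMSO pair (11.86 and 11.72).

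Spindle and microtubule factors fell in 6 of 7 cases with DAC at 5 µM, with G668684 at 7 µM and with the higher dose of G669071, and in 4 with Aza at 1500 nM. ASPM, a spindle pole protein, read 9.26, 9.46 and 9.52 on DMSO replicates 1, 3 and 4 and less on replicate 2, 8.01 and 8.22 with DAC at 5 µM, 7.71 and 8.48 with G668684 at 7 µM, and 8.55 and 8.10 with Aza at 1500 nM. All 6 treated arrays lay below the DMSO range. ASPM changed by -1.20 ± 0.17 with DAC at 5 µM, to 43.7% of DMSO (limma adjusted p = 1.7e-05), and by -0.99 ± 0.17 with Aza at 1500 nM. A second probe set, with a DMSO mean of 7.42 against 9.31 for the chosen one, did not fall. The changes read from it were 0.02 with DAC at 5 µM, 0.10 with G668684 at 7 µM and 0.01 with Aza at 1500 nM. Another, dim probe set with a DMSO mean of 4.88 gave -0.43, -0.26 and -0.32 in these groups, so the probe sets of ASPM disagree.

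HMMR, a hyaluronan receptor that also binds spindle microtubules, read 11.28, 11.10, 11.66 and 11.50 with DMSO, 10.29 and 10.50 with DAC at 5 µM, and 10.81 and 10.89 with G668684 at 150 nM. Both groups lay below the DMSO range, and HMMR fell by 0.99 with DAC at 5 µM (SE 0.13, limma adjusted p = 7.2e-06) and by 0.54 with G668684 at 150 nM, the latter lost without G668684 replicate 1 (adjusted p = 0.081). DLGAP5, which stabilizes kinetochore fibres, fell by 0.89 with DAC at 5 µM and by 0.46 with Aza at 1500 nM, the latter lost without Aza replicate 2 (limma adjusted p = 0.12). CKAP2 was not called in any of the 10 comparisons, with a change of -0.32 with DAC at 5 µM.

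Of the cytokinesis genes, 2 of 3 fell with DAC at 5 µM and with G668684 at 7 µM, 1 with the higher dose of G669071 and 0 with Aza at 1500 nM, where 0 of the 3 also had an unadjusted p under 0.05 by limma. ANLN, anillin, a scaffold of the contractile ring, read 10.44, 10.40, 11.37 and 11.35 with DMSO and 10.23 and 10.24 with DAC at 5 µM. These arrays lay just below the lower DMSO pair, and the change of -0.66 ± 0.23 (limma adjusted p = 0.033) was lost without either DAC array or DMSO replicate 3 or 4. RACGAP1, a subunit of centralspindlin, read 11.84, 11.76, 12.23 and 12.19 with DMSO and 11.57 and 11.62 with DAC at 5 µM, a change of -0.41 ± 0.12 that was lost without either DAC array (adjusted p = 0.10 and 0.065). ECT2, the exchange factor that RACGAP1 binds, was not called in any of the 10 comparisons and read 10.02, 9.70, 10.76 and 10.79 with DMSO.

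Chromosome structure genes fell in 5 of 5 cases with DAC at 5 µM, 4 with G668684 at 7 µM, 2 with the higher dose of G669071 and 1 with Aza at 1500 nM. SMC4, the ATPase subunit shared by both condensins, read 10.79, 10.64, 11.06 and 11.06 with DMSO, 9.32 and 9.57 with DAC at 5 µM, 8.99 and 9.69 with G668684 at 7 µM, and 10.33 and 10.11 with Aza at 1500 nM. None of these arrays reached the DMSO range. It changed by -1.44 ± 0.15 with DAC at 5 µM, to 36.8% of DMSO (limma adjusted p = 2.6e-07), by -1.55 ± 0.15 with G668684 at 7 µM and by -0.67 ± 0.15 with Aza at 1500 nM, the last lost without Aza replicate 2 (adjusted p = 0.095).

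NCAPH, a condensin I subunit, read 9.62 to 9.78 with DMSO, 8.52 and 8.54 with DAC at 5 µM, 9.13 and 9.22 with DAC at 120 nM, and 9.60 and 9.43 with Aza at 1500 nM. The DAC arrays lay well below the DMSO range and the Aza arrays just below it. NCAPH changed by -1.15 ± 0.08 with DAC at 5 µM (limma adjusted p = 5.5e-10) and by -0.50 ± 0.08 at 120 nM, and was called in all 6 groups of DAC, G669071 and G668684. The call with the lower dose of G669071 was lost without its replicate 1 (adjusted p = 0.086), and the calls there of CCNB2, BUB1B, KIF15 and KIF18A, the other genes called in all 6 groups, were also each lost without some array. With Aza at 1500 nM its change was -0.16, with a 95% interval of -0.32 to 0.00 (adjusted p = 0.18).

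MKI67, the proliferation marker Ki-67 that coats mitotic chromosomes, read 9.54, 9.31, 9.55 and 9.62 with DMSO, 8.06 and 8.64 with DAC at 5 µM, 7.59 and 8.74 with G668684 at 7 µM, and 9.18 or less on both arrays with the higher dose of G669071. All 6 treated arrays lay below the DMSO range, with wide gaps between the replicates of DAC and of G668684 but not of G669071. MKI67 changed by -1.16 ± 0.23 with DAC at 5 µM (limma adjusted p = 4.8e-04) and by -1.34 ± 0.23 with G668684 at 7 µM. It missed the threshold with the higher dose of G669071 (-0.42, adjusted p = 0.20) and with Aza at 1500 nM (-0.60, adjusted p = 0.081). The other 3 probe sets of MKI67 gave more negative changes there, -0.73, -0.74 and -0.87 with the higher dose of G669071 and -0.69, -0.89 and -0.80 with Aza at 1500 nM. TOP2A, topoisomerase II alpha, read 10.05, 9.84, 10.53 and 10.48 with DMSO and 9.72 and 9.83 with DAC at 5 µM, a change of -0.45 ± 0.16 (adjusted p = 0.035) that was lost without either DAC array or DMSO replicate 3 or 4.

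Across the 10 comparisons with DMSO, read from the chosen probe sets, 7 genes were never called lower (CDK1, CKS2, MAD2L1, CENPI, NUF2, CKAP2 and ECT2), 21 were lower in 1 to 3 groups, 20 in 4 to 6, and 5 in 7 or more (CCNB2, BUB1B, CENPE, KIF15 and KIF18A). Of the never lowered genes CDK1, MAD2L1, NUF2, CKAP2 and ECT2 differed by 0.68 to 0.91 between the DMSO pairs. Other probe sets of some of them had more negative changes with DAC at 5 µM: besides those of MAD2L1, CDK1 had -0.42 and -0.48 and ECT2 -0.54, where the chosen ones gave -0.30 and -0.33. The 35 genes lowered by the higher dose of G669071 were lowered by DAC at 5 µM and by G668684 at 7 µM as well, and the 15 lowered by Aza at 1500 nM were all among the 45 lowered by DAC at 5 µM. These comparisons share their DMSO arrays. With 45 of the 53 genes lowered by DAC at 5 µM, most of any subset of the 53 would lie among them. The same overlap over all genes was not counted, so it is not known whether it is particular to the G2/M genes. Among genes with more than 1 kept probe set that were called with DAC at 5 µM, all probe sets went one way in 19 of 21, the exceptions being ASPM and AURKB. The same held in 6 of 9 with Aza at 1500 nM, where ASPM, CCNB2 and CDC25C were the exceptions. It held in 4 of 6 with DAC at 120 nM (not CCNB2 and SMC4) and in 5 of 7 with G668684 at 150 nM (not ASPM and CCNB2). Such agreement was not counted over all genes.

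CDKN1A and DNMT1 were read beside these genes. CDKN1A lay at 9.97 to 10.29 with DMSO and at 12.07 and 12.14 with DAC at 5 µM, and it rose in 9 of the 10 groups, by 1.93 with DAC at 5 µM, 1.89 with G668684 at 7 µM, 1.46 with the higher dose of G669071, 1.09 with Aza at 1500 nM and 0.93 with G669043 at 1500 nM. With G669043 at 150 nM its change was 0.30 (limma adjusted p = 0.06). With G669043 at 1500 nM 1 of the 53 genes was called lower against all DMSO arrays, a count that depended on the DMSO pair. DNMT1, the target of the compounds, changed by -0.63 with DAC at 5 µM, -0.60 with G668684 at 7 µM and -0.33 with the higher dose of G669071, and was not called in the other 7 groups. Their part in the changes of the G2/M genes was not tested.

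The doses of each compound were compared without the DMSO level, although the DMSO arrays enter the spread of the fit. The high dose lowered 30 of the 53 genes with DAC (median -0.48, 5.94% of all genes lower), 18 with G669071 (median -0.30, 3.71%) and 30 with G668684 (median -0.42, 3.77%), and raised 0 in each. With Aza 5 genes were lower and UBE2C was higher at 1500 nM than at 150 nM (median -0.23, 3.38% of all genes lower and 2.41% higher). With G669043 0 were called by limma, 8 having an unadjusted p under 0.05 (median -0.13, 3.87% of all genes called). CENPF read 9.93 and 9.65 at 120 nM DAC against 7.55 and 8.05 at 5 µM, a change of -1.99 ± 0.33 (limma adjusted p = 3.1e-04) and the most negative of all genes tested. With G668684 CENPF changed by -1.39 ± 0.33 between doses, again the most negative of all genes, and -0.57 without replicate 1 of the 7 µM group (adjusted p = 0.22). That call was also lost without replicate 1 of the 150 nM group (adjusted p = 0.11). With G669071 the largest fall was in KIF15 (-0.90 ± 0.19) and with Aza in CENPE (-1.10 ± 0.21, adjusted p = 0.0033).

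CENPF and KIF11 showed different dose patterns with DAC. CENPF lay within the DMSO range at 120 nM and far below it at 5 µM. KIF11 was at 54.4% of DMSO at 120 nM and at 37.6% at 5 µM. KIF15 and NCAPH were at 58.4% and 70.7% of DMSO at 120 nM and at 25.5% and 45.2% at 5 µM, while MKI67 and CENPE were at 99.7% and 88.9% at 120 nM. The doses of G668684 and DAC differ, so their values are set side by side only: at 150 nM G668684 left CENPE at 55.9%, CENPF at 67.5% and KIF15 at 48.6% of DMSO. Without 1 array the dose counts with G668684 were as low as 14 (without replicate 1 at 7 µM), 19 and 18 (without replicates 1 and 2 at 150 nM), with G669071 as low as 10 (without replicate 2 of the lower dose), and with Aza 1 or 0 without replicate 2 at 1500 nM or either array at 150 nM. Fits of only the arrays compared gave more calls for 2 compounds, 39 with G669071 and 32 with Aza. The share of all genes called in those fits was not counted.

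G669043 and Aza shared both of their doses and could be tested against each other, 2 pairs of groups with p-values adjusted over all genes tested in each. At 1500 nM 1 of the 53 genes was called, ASPM, higher with G669043 (1.46% of all genes called higher), and 0 were called lower. ASPM read 9.03 and 9.23 with G669043 and 8.55 and 8.10 with Aza, a difference of 0.80 ± 0.20 with a 95% interval of 0.38 to 1.23 (limma adjusted p = 0.041). The arrays did not overlap, and the call was lost without Aza replicate 2 or either G669043 array (adjusted p = 0.48, 0.086 and 0.45). The count rose to 5 after a second quantile normalization and to 23, of which 22 were higher, in a fit of only these arrays. For neither was the share of all genes called counted. The other values leaned the same way without calls: 7 of the 53 differences were below 0, the median was 0.27 (-0.03 over all genes), and 39 genes had both G669043 arrays above both Aza arrays, where 23.6% of all genes did.

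CENPE read 6.91 and 7.12 with G669043 and 6.12 and 6.31 with Aza, a difference of 0.80 with an interval of 0.36 to 1.24 (limma adjusted p = 0.053). CENPF differed by 0.89 (0.20 to 1.59) and KIF15 by 0.62 (0.23 to 1.02), and neither was called. For PLK1 the difference was 0.03 (-0.24 to 0.30) and for CDK1 -0.02 (-0.45 to 0.42), and the widths of these intervals limit what can be said of likeness. At 150 nM 0 of the 53 genes were called by limma, with 3 at an unadjusted p under 0.05 and a median of 0.16 (0.0665% of all genes called). A fit of only these arrays called 21, all higher with G669043, the share of all genes called there not being counted. In the arrays themselves 36 genes had both G669043 arrays above both Aza arrays, where 30.4% of all genes did. The dose effects of the 2 compounds, compared as an interaction, differed in 0 of the 53 genes by limma, with 4 at an unadjusted p under 0.05 (0.449% of all genes called).

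Longer genes tended to have more negative changes. The genomic span of the 53 genes, from RefSeq, ran from 4.22 kb to 131 kb, and its Spearman correlation with the log2 change against DMSO was -0.50 with DAC at 5 µM, -0.48 with G668684 at 7 µM and -0.57 with Aza at 1500 nM, given as a description over 53 genes that share their arrays. Over all genes with a span the values were -0.09, -0.11 and -0.26. UBE2C, which rose with Aza, is among the shortest, and KIF15 and CENPE are among the longest, while CENPI is long and did not fall. With G669043 the correlations were -0.19 at 1500 nM and 0.06 at 150 nM.

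**Figure D5:**
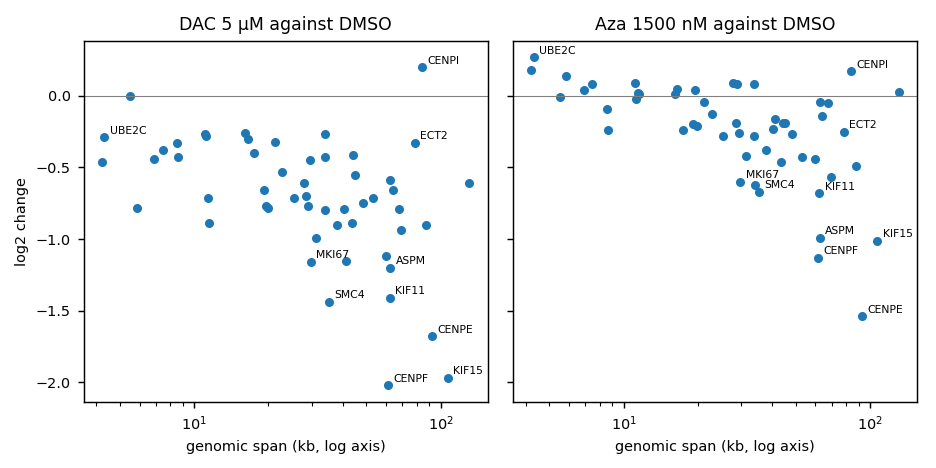
Log2 change against DMSO (vertical) and genomic span in kb (horizontal, log axis) of the 53 genes with DAC 5 µM (left) and Aza 1500 nM (right). Points run lower toward the right in both, with a Spearman correlation of -0.50 and -0.57, and CENPI stands above 0 among the long genes.

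Other genes of the same machinery, in lists chosen with earlier results known, moved much as these did with DAC at 5 µM. In that group 14.2% of all genes were called lower and a larger share higher. Of 29 further passenger complex, kinesin and spindle genes 24 fell and 0 rose (median -0.58), with DEPDC1, KIF20B and PSRC1 at -1.21, -1.19 and -1.19. Of 30 further centromere and kinetochore genes 22 fell and 1, MAD1L1, rose (median -0.45), with CENPU at -0.95. Of 17 condensin and cohesin genes 11 fell and 0 rose (median -0.56), with the centromere protector SGO2 at -1.24 and the condensin subunit SMC2 at -1.03. Kinases, phosphatases and regulators of G2/M fell in 12 of 24 cases and rose in 1: WEE1, which holds CDK1 inactive, fell by 0.83, and SFN, the checkpoint protein 14-3-3 sigma, rose by 0.71.

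The anaphase-promoting complex and the transcription regulators moved less in one direction. Of 16 genes of the complex 4 fell and 2 rose with DAC at 5 µM (median -0.06), where 14.2% of all genes were called lower and more than that higher, with its inhibitor FBXO5 at -0.95 and its subunit ANAPC13 at 0.34. Of 23 MuvB, B-MYB, E2F and pocket protein genes 9 fell and 2 rose (median -0.20), with E2F8 at -1.39, MYBL2, which encodes B-MYB, at -0.57 and the MuvB subunit LIN37 at 0.97. With Aza at 1500 nM the calls in these lists were fewer: 4 centromere and kinetochore genes were lower and 4 higher, and 5 of the passenger complex, kinesin and spindle genes were lower and 0 higher, where 9.19% of all genes were lower and 8.13% higher. MYBL2 rose with Aza by 0.30, as did CENPN by 0.45, CDCA5, which encodes sororin, by 0.27 and the CDK1-inhibiting kinase PKMYT1 by 0.30, and each of these 4 fell with DAC at 5 µM, by 0.57, 0.29, 0.59 and 0.22. NIPBL, a cohesin loader, fell by 1.05 with Aza and by 0.68 with G668684 at 7 µM. The difference between the compounds was not tested, since their doses differ.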

How the data were processed

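RNA of HCT116 cells was measured on 24 one-colour Affymetrix arrays in 11 groups. The deposited values are intensities that the authors made with RMA, for which the submitters' processing notes name Affymetrix Expression Console 1.1. Promoter coordinates are those of RefSeq on GRCh38.p14, and no build of the authors was used. Here log2 was taken, control probe sets were left out, and probe sets reaching a log2 value of 5 on 2 or more arrays were kept. The platform annotation gave 1 symbol to 41091 of 54675 probe sets, several to 1801 and none to 11721. Each gene was read from its probe set with the highest mean. limma 3.58.1 in R 4.3.3 (lmFit, eBayes with an intensity trend) fitted all 11 groups, with Benjamini-Hochberg adjustment over 18055 genes. The script was tested on simulated data. The number of arrays limits precision: the median 95% interval was ± 0.21 for comparisons with DMSO and ± 0.24 for those between treatments. The members and lists were chosen with earlier results of these data known. Genes named with values on each array are CCNB1, CDK1, PLK1, TOP2A, MKI67, FOXM1 and the members of each role with the largest called falls, besides genes called against the majority or in no comparison with DMSO. Alternatives covered normalization, filter, probe sets, DMSO pair, covariates, the replicate block and each array left out. Python 3.11.15 with pandas 2.3.3 and matplotlib 3.10.9 drew the figures.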

Additional observations from a re-analysis of the deposited data

Results flagged for a closer look

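ASPM differed between Aza and G669043 at 1500 nM by 0.80 on the log2 scale, higher with G669043 in both arrays, in a test of the difference itself (limma adjusted p = 0.041). Without Aza replicate 2 the adjusted p was 0.48, and without G669043 replicate 1 or 2 it was 0.086 and 0.45. Among the 4 DMSO arrays 0 of the 53 genes had an array apart from the rest by Dixon's test. That test looks for a single array apart and cannot show the split of these arrays into pairs.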

How the results depend on the processing

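The counts are of the 53 genes called, and the share of all genes called was not counted in these alternatives. With DMSO replicates 1 and 2 alone they were 2 for Aza 150 nM, 9 for DAC 120 nM, 12 for G669043 1500 nM, 26 for G669043 150 nM and 3 for the lower dose of G669071. With DMSO replicates 3 and 4 alone they were 30 for Aza 1500 nM, 2 for Aza 150 nM, 32 for DAC 120 nM, 36 for G668684 150 nM, 7 for G669043 1500 nM and 30 for the lower dose of G669071. A second quantile normalization gave 5 for G669043 against Aza at 1500 nM. The beta-actin value as a covariate gave 12 between the doses of Aza, 10 between those of G669043, 5 for G669043 150 nM and 0 for G669043 against Aza at 1500 nM. Without the intensity trend, and with median centring, G669043 against Aza at 1500 nM had 0 and G669043 1500 nM had 1, and median centring gave 9 for DAC 120 nM. The mean of a gene's probe sets gave 1 for Aza 150 nM and 0 for G669043 against Aza at 1500 nM, and no filter gave 1 for G669043 1500 nM. Fits of only the arrays compared gave 4 for the interaction, 32 between doses of Aza, 39 between those of G669071, 2 between those of G669043, 9 for Aza 1500 nM, 2 for DAC 120 nM, 10 for G668684 150 nM, 0 for G669043 1500 nM, 3 for the lower dose of G669071, and 23 and 21 for G669043 against Aza at 1500 nM and 150 nM. The replicate block gave 13 between doses of Aza, 1 between those of G669043, 2 for Aza 150 nM, 14 for G669043 1500 nM, 26 for G669043 150 nM, 3 for the lower dose of G669071 and 14 for G669043 against Aza at 1500 nM. The difference between replicates 1 and 2 correlated above 0.1 in 20 of 55 pairs of groups (-0.39 to 0.61). Whether equal numbers mark a pairing is not settled. Replicates 3 and 4 exist for DMSO alone. Against DMSO the block therefore in effect uses DMSO replicates 1 and 2 and is not a separate check. Dropping probe sets that match several transcripts left 39 of the genes, and the counts were 28 for DAC 5 µM, 28 for G668684 7 µM, 23 for the higher dose of G669071, 1 for Aza 150 nM, 19, 16 and 2 between doses of DAC, G668684 and Aza, 2 between doses of G669043, 1 for the interaction and 0 for G669043 against Aza at 1500 nM. There ASPM reversed to 0.01 with DAC 5 µM, 0.47 with the higher dose of G669071, 0.10 with G668684 7 µM, 0.30 with G668684 150 nM and 0.01 with Aza 1500 nM, CDC25C to 0.04 with Aza 1500 nM, and CCNB1 to 0.13 and 0.09 between doses of DAC and G668684. Leaving out 1 array in turn gave 36 to 46 for DAC 5 µM, 6 to 21 for DAC 120 nM, 25 to 41 and 2 to 13 for the higher and lower dose of G669071, 38 to 48 and 8 to 22 for G668684 at 7 µM and 150 nM, 5 to 21 for Aza 1500 nM, 0 to 2 and 0 to 3 for G669043 at 1500 nM and 150 nM, 24 to 36, 10 to 15, 14 to 27 and 0 to 4 between doses of DAC, G669071, G668684 and Aza, and 0 to 1 for G669043 against Aza at 1500 nM. Of 4419 alternatives for 268 values of named genes, 3846 kept direction and call, 565 lost the call and 8 reversed. The causes were not tested.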
